A study of Canis lupus familiaris with 28 samples.

Results

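The genes described here were SCN2B, GLRB, OPN1SW, SLC24A5, CA14, CCDC54 and HYDIN, which are best known from nerve, retina, pigment cells, testis and ciliated cells, and which were measured in dog blood. They were chosen because probes of theirs had low p-values between dogs with atopic dermatitis (AD) and healthy dogs, so their difference between the groups is given as a description with no test. Every probe with one of these 7 gene names was taken, which gave 13 of the 43603 probes on the array. A filter on signal kept 8 of the 13, from 6 of the 7 genes, and 30202 probes over the whole array. Neither GLRB probe was kept. RNA came from blood of 20 client-owned dogs of various breeds with AD, sampled while clinical signs were visible, and of 8 healthy dogs that served as blood donors. Both groups held females and males, but not in like shares: females were the majority in AD and males in healthy dogs. The mean age was somewhat higher in the healthy dogs. Neither sex nor age was a term in the fits. Each dog had 1 dual-channel Agilent canine array, with RNA of the dog in red (Cy5) and a pool of RNA from other healthy dogs, the common reference, in green (Cy3) on every array. The labels name whole blood and the series title names peripheral blood nuclear cells, a mixture in which fewer cells of a type and less RNA per cell cannot be told apart.

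SCN2B is an auxiliary beta subunit of voltage-gated sodium channels, which carry the rising phase of the action potential, and GLRB is the beta subunit of the glycine receptor, an inhibitory chloride channel held at synapses by gephyrin. OPN1SW is the opsin of short-wavelength cones, the photoreceptors of colour vision. SLC24A5 is a potassium-dependent sodium and calcium exchanger of pigment cells needed for normal melanin formation. CA14 is a membrane-bound carbonic anhydrase, CCDC54 is a coiled-coil protein described mainly from testis, and HYDIN is a protein of the central pair of motile cilia. Blood cells have no cilium of this kind, no neuronal synapse and no pigment granule, so the question for these genes was how far their signal in blood stood above background, agreed between probes and exceeded the spread between dogs.

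The probes are 60 bases long, and their sequences are shown because the brightest probe of 4 genes shared a run of alternating pyrimidines to which the values below return. The capitals mark the letters TCTCTC, including runs of this hexamer that overlap. Letters a, b and c rank the probes of a gene by mean signal, and probe a represents its gene. Coordinates are those of the scanner files on the build canFam3, and the files do not say whether a probe lies in an exon, an intron or an untranslated region.
SCN2B a (chr5:15533738-15533797, plus strand): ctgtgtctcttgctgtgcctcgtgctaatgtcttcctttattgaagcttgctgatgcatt
OPN1SW (chr14:7868406-7868465, plus strand): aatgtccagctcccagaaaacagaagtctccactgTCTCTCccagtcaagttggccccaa
SLC24A5 (chr30:14399936-14399995, plus strand): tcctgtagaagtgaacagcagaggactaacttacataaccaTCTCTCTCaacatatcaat
CA14 a (chr17:59504572-59504631, plus strand): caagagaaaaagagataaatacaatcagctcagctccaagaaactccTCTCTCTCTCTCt
CCDC54 a (chr33:12685457-12685516, plus strand): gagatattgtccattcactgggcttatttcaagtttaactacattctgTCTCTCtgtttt
HYDIN a (chr5:76743986-76744045, minus strand): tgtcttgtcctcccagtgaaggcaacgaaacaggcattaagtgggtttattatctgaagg
The other probes of CA14 and CCDC54 are shown for contrast, since they target the same transcripts without the hexamer.
CA14 b (chr17:59510397-59510456, plus strand): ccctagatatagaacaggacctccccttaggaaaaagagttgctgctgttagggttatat
CCDC54 b (chr33:12684772-12684831, plus strand): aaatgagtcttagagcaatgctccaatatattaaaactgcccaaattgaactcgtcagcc

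Over the whole array, red signal was well above background for 84.3% to 90.3% of spots in healthy dogs and for 51.7% to 87.4% in AD dogs, with at most 63.2% in the 6 AD dogs of the last scan day. Healthy dogs lay on slides 2 and 3, both scanned on 1 day, and no slide or scan day held both groups, so slide, scan day and group cannot be told apart. Log2 ratios of different arrays correlated down to an r of -0.40; the direction of the ratio, dog over reference, was kept because the study states the dyes. Of 24 markers of blood cells on the array, 23 were well above background in red on all 28 arrays, S100A8, S100A12 and ALAS2 among the brightest. The limma comparison of AD with healthy dogs called 0 of 30202 probes (0%) at the adjusted threshold of 0.085 and 1847 (6.12%) at an unadjusted p under 0.05, of which 1348 (4.46%) were lower and 499 (1.65%) higher in AD. At an unadjusted p under 0.05, 6 of the 8 member probes kept were called. The brightest probe had a lower mean in AD in 6 of the 7 genes, against 52.1% of all probes kept. The genes were chosen by this contrast, so nothing is read from these counts.

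The members differed in how far their red signal stood above background. CA14 a lay at the 98.6th percentile of the red signal on the median array, between 98.1 and 98.9 over the 28 arrays, and was well above background on all of them. SCN2B a lay at the 87.1th percentile and OPN1SW at the 69.1th, and both were well above background on all 28 arrays. These 3 probes had a clear signal in every dog, with mean signals of 35241, 1929 and 465 in the same order.
SLC24A5 was well above background on 27 of 28 arrays at the 46.6th percentile, CCDC54 a on 24 at the 45.4th and HYDIN a on 22 at the 40.1th. HYDIN a was well above background in 8 of 8 healthy and 14 of 20 AD dogs, and on none of the 6 arrays of the last scan day. CCDC54 a was well above background in 8 of 8 healthy and 16 of 20 AD dogs. These were dim probes, whose arrays without a clear signal were all of AD dogs.
The remaining probes of the same genes lay at the 50.9th percentile or below. SCN2B b was well above background in red on 28 arrays, CA14 b on 25 and SCN2B c on 21. GLRB a passed on 15 arrays, 7 of 8 healthy and 8 of 20 AD, and HYDIN b on 9, 7 of 8 healthy and 2 of 20 AD. CCDC54 b and GLRB b passed on 0 of 28, so they were not well above background in any dog. By the other measure of background, the brightest of 153 negative control spots of the same array, CCDC54 b exceeded it on 16 arrays and GLRB b on 2, while the brightest probe of the 5 genes SCN2B, OPN1SW, SLC24A5, CA14 and CCDC54 did so on all 28. Probes differ in binding, so these brightnesses are no ranking of the messenger RNAs.

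**Figure D1:**
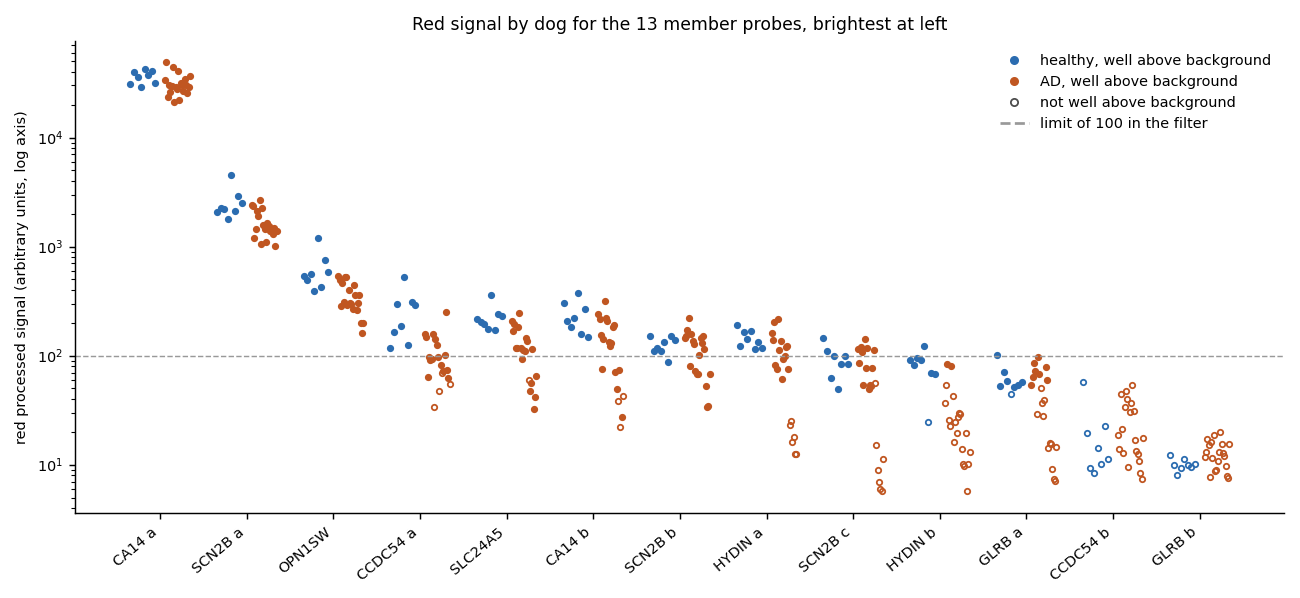
Red processed signal (arbitrary units, log axis) of each dog for the 13 probes, ordered by mean signal, with healthy dogs in blue, AD dogs in orange and open circles for signals not well above background. CA14 a, SCN2B a and OPN1SW were well above background in every dog, and CCDC54 b and GLRB b in none.

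Among the nerve genes, SCN2B had 3 probes that did not move alike. The log2 ratio of SCN2B a ran from -0.12 to 0.77 in healthy dogs (median 0.10) and from -0.65 to 0.16 in AD dogs (median -0.17). All 20 AD dogs lay below the healthy mean and 12 below the lowest healthy dog, so the groups overlapped in the others. The means were 0.18 ± 0.27 (SD, n = 8) and -0.21 ± 0.26 (SD, n = 20), a difference of -0.39 with a standard error of 0.11.
SCN2B b targets the same gene (chr5:15521600-15521659) and had a mean of -0.17 ± 0.19 in healthy and 0.03 ± 0.42 in AD dogs, a difference of 0.19 with a standard error of 0.11, and 6 AD dogs lay above every healthy dog. Its mean was 0.35 in the AD dogs of the last scan day and -0.11 in the other AD dogs, and without that day the difference was 0.06. SCN2B c (chr5:15529791-15529850) differed by 0.05 with a standard error of 0.21. Of the 3 probes only the brightest had a lower mean in AD.
GLRB a spans chr15:54488816-54494142, and had a mean of 0.20 ± 0.38 in healthy and 0.23 ± 0.35 in AD dogs, a difference of 0.03. GLRB b, which was well above background in neither channel on any array, still gave mean log2 ratios of -0.68 ± 0.35 in healthy and 0.04 ± 0.34 in AD dogs. With both channels at background no fold is given for this probe.

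OPN1SW, the retinal gene, had a single probe. Its log2 ratio ran from -0.39 to 1.05 in healthy dogs (median -0.03) and from -0.91 to -0.03 in AD dogs (median -0.45). All 20 AD dogs lay below the healthy mean, and 13 below the lowest healthy dog. The means were 0.06 ± 0.48 (SD, n = 8) and -0.48 ± 0.25 (SD, n = 20), a difference of -0.54 with a standard error of 0.18.
The highest healthy value was that of healthy dog 5, and without this dog the difference was -0.40. The healthy dogs had a mean of -0.18 on slide 2 and 0.31 on slide 3, and the difference was -0.79 without slide 2 and -0.30 without slide 3. In AD dogs the mean was -0.48 both on the last scan day and on the others.

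SLC24A5, the pigment gene, also had a single probe. Its log2 ratio ran from -0.26 to 0.51 in healthy dogs (median -0.01) and from -1.43 to 0.09 in AD dogs (median -0.65). Of the AD dogs, 19 lay below the healthy mean and 16 below the lowest healthy dog, the most among the member probes kept. The means were -0.01 ± 0.25 (SD, n = 8) and -0.63 ± 0.41 (SD, n = 20), a difference of -0.62 with a standard error of 0.13.
Another probe within 10000 bases, which the array names TC76074 and describes as the human sodium/potassium/calcium exchanger 5, the product of SLC24A5, had a mean signal of 20.3, below the filter's limit of 100. It was looked up after the values were seen, and no further probe for this gene was bright enough to compare.

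The 2 probes of CA14, the carbonic anhydrase, stood apart. The log2 ratio of CA14 a ran from -0.25 to 0.52 in healthy dogs (median 0.14) and from -1.10 to 0.08 in AD dogs (median -0.21). All 20 AD dogs lay below the healthy mean and 9 below the lowest healthy dog. The means were 0.14 ± 0.21 (SD, n = 8) and -0.36 ± 0.36 (SD, n = 20), a difference of -0.50 with a standard error of 0.11.
CA14 b had means of 0.11 ± 0.42 and 0.01 ± 0.29, a difference of -0.10 with a standard error of 0.16, which is smaller than the spread in either group. The AD dogs of CA14 a were not spread evenly: AD dogs 3, 8, 12 and 14 lay at -0.83, -1.10, -0.82 and -1.05, AD dogs 6 and 15 at -0.65 and -0.64, and the other 14 between -0.37 and 0.08. Outside the last scan day, CA14 a had an r of 0.65 in AD dogs with the array's share of probes well above background in red. For SCN2B a, SLC24A5, CCDC54 a, OPN1SW and HYDIN a it was 0.64, 0.65, 0.50, 0.27 and -0.12. Over all 20 AD dogs the r of CA14 a was 0.06. On the arrays of AD dogs 3, 8, 12 and 14, 84.5%, 72.5%, 78.8% and 60.2% of spots were well above background. The part of array quality was not tested.

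CCDC54, the testis gene, had the widest spread. The log2 ratio of CCDC54 a ran from -1.34 to 0.91 in healthy dogs (median -0.09) and from -2.52 to 0.32 in AD dogs (median -1.35). Of the AD dogs, 19 lay below the healthy mean and 12 below the lowest healthy dog. The means were -0.29 ± 0.74 (SD, n = 8) and -1.35 ± 0.73 (SD, n = 20), a difference of -1.05 with a standard error of 0.31.
CCDC54 b had means of -1.40 ± 0.59 in healthy and -0.62 ± 0.86 in AD dogs, so that its log2 ratios ran the other way, in a probe whose red signal was not well above background in any dog.

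HYDIN, the cilium gene, had 2 dim probes. The log2 ratio of HYDIN a ran from -0.30 to 0.48 in healthy dogs (median 0.06) and from -1.51 to 0.41 in AD dogs (median -0.25). The means were 0.11 ± 0.24 (SD, n = 8) and -0.32 ± 0.54 (SD, n = 20), a difference of -0.42 with a standard error of 0.15. All 6 AD dogs of the last scan day lay among the 7 lowest AD dogs, with AD dog 4 of another day at -0.91.
The mean of HYDIN a was -0.92 in the 6 AD dogs of that day and -0.06 in the other 14, and without that day the difference was -0.16. HYDIN b (chr5:76743883-76743942, minus strand), which lies close to it in the same transcript, had means of 0.03 ± 0.76 in healthy and -1.56 ± 0.62 in AD dogs. Its red signal was well above background in only 2 AD dogs, and the filter on signal did not keep it.

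**Figure D2:**
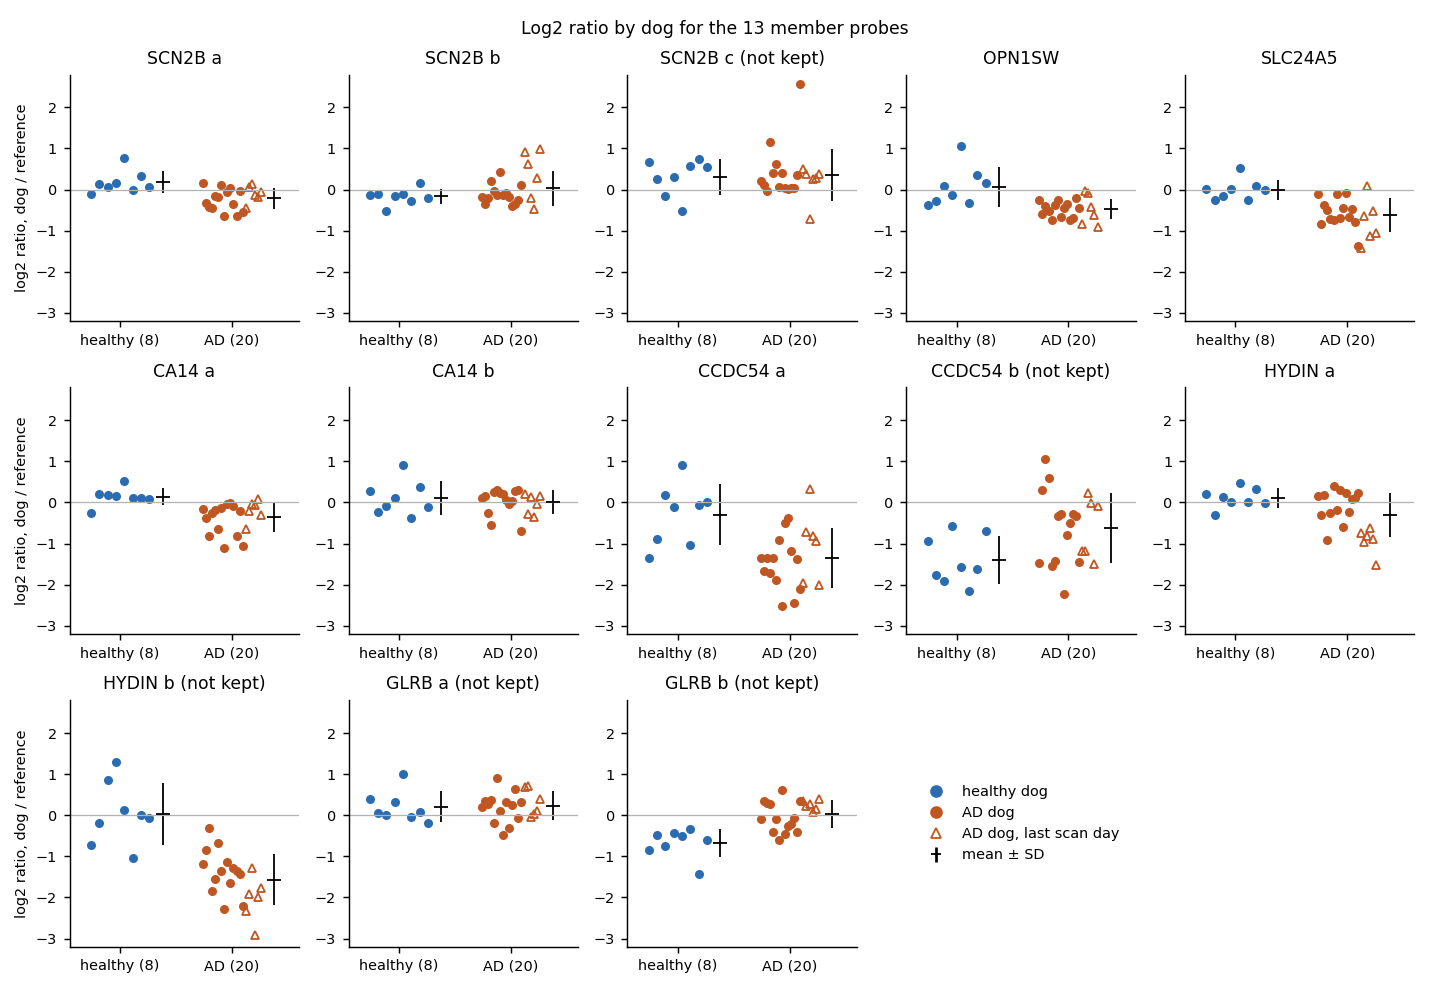
Log2 ratio of dog over common reference (vertical axis) for each of the 13 probes in healthy and AD dogs, with points for dogs, open triangles for AD dogs of the last scan day, and mean ± SD in black. The groups overlapped for every probe, as they did for each of the 30202 probes kept over the array. The 6 triangles of HYDIN a lay from -0.61 to -1.51.

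No agreement over dogs was detected between probes of the same gene. In 5 of the 7 pairs a probe was dropped by the filter on signal, and the probes CCDC54 b and GLRB b, at background, could hardly follow another, so only SCN2B a with b and CA14 a with b compare kept probes. Within a group this covariation does not use the difference that chose the genes, so it was tested, for 7 pairs of probes in each group, 14 correlations in all. Pearson's r ran from -0.66 to 0.39 and Spearman's rho from -0.40 to 0.55, and 0 of 14 passed an adjusted p of 0.05 in two-sided permutation tests, which were exact for the 8 healthy dogs. The lowest adjusted p in these permutation tests was 0.531 for r and 0.289 for rho.
CA14 a and b had an r of 0.10 (rho -0.19) in AD dogs, with a permutation p of 0.693, and 0.37 (rho 0.19) in healthy dogs, with an exact permutation p of 0.339. SCN2B a and b had an r of 0.11 (rho 0.05) in AD dogs, with a permutation p of 0.642, and 0.37 (rho 0.55) in healthy dogs, with an exact permutation p of 0.306. At an unadjusted p under 0.05 stood 1 Pearson correlation, SCN2B a with c in AD dogs (r -0.43, permutation p 0.0482), and 1 Spearman correlation, SCN2B b with c in AD dogs (rho 0.52, permutation p 0.0206). The first of these was negative.
Without the 2 dogs farthest from the median, SCN2B a with c had an r of -0.58 in AD dogs (permutation p 0.00315, adjusted 0.0441). Its rho was -0.47 (permutation p 0.0524, adjusted 0.332), so only Pearson's r passed. Those 2 dogs were chosen on SCN2B a alone. AD dog 14 stayed in, at 2.58 for SCN2B c, where its red signal was not well above background. CA14 a with b had an r of -0.25 (rho -0.44) when the 2 farthest dogs were left out. For comparison, the median r in AD dogs was 0.52 over all 8506 pairs of kept probes that share a gene name. It was 0.33 over the 2996 pairs whose fainter probe had a mean signal under 200, as CA14 b and SCN2B b had. The quartiles of these 2996 pairs were 0.03 and 0.59. The r in AD dogs of CA14 a with b (0.10) and SCN2B a with b (0.11) lay between them.

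The spread between dogs was of the size of other probes for most members. The SD over AD dogs was 0.26 for SCN2B a, 0.25 for OPN1SW, 0.36 for CA14 a, 0.41 for SLC24A5, 0.54 for HYDIN a and 0.73 for CCDC54 a, and the median over all probes kept was 0.43. Among probes with a mean signal of 100 to 300, where SLC24A5, CCDC54 a and HYDIN a lie, that median was 0.48 in AD and 0.29 in healthy dogs. CCDC54 a exceeded it in both groups, with an SD of 0.74 in healthy dogs.
The error that the scanner software assigned to a log2 ratio of 1 array had a median of 0.20 for SCN2B a and CA14 a, 0.21 for OPN1SW, 0.25 for SLC24A5, 0.26 for CCDC54 a and 0.28 for HYDIN a. Spots of probes printed several times on an array differed with a median SD of 0.24 at signals of 100 to 300 and 0.05 above 1000, and each member probe had a single spot.
Slides within a group were tested across the whole array with limma, since this does not use the contrast between the groups. In AD dogs 0 of the 8 kept member probes passed an adjusted p of 0.05, against 3.74% of all probes, and 1 passed an unadjusted p under 0.05, against 16.5%. That probe was HYDIN a (limma p = 0.00503, adjusted 0.0913), with means of -0.84 on slide 7 and -1.004 on slide 8, against -0.22 to 0.17 on the others. In healthy dogs 0 of the 8 passed either threshold with limma, against 0% and 5.77% of all probes.

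The choice of genes did not look at the run TCTCTC, but the run is not independent of that choice. Probes with it more often had low p-values in the same contrast, as given below, so its share among the members is no separate evidence. It lay in 4 of the 13 member probes, OPN1SW, SLC24A5, CA14 a and CCDC54 a, and in 1.90% of all probes of the array, while its reverse complement GAGAGA lay in 0 of the 13 and in 2.19% of all probes. The run was noticed after the values were seen, so its shares are a description with no test. All 4 probes that held it had lower means in AD.
Outside the members, 617 kept probes held TCTCTC, and 219 of them (35.5%) were lower in AD at an unadjusted p under 0.05, against 3.80% of the 29577 without it. The share was 16.9% without slide 3 (others 1.70%), 20.7% with normexp and loess (others 3.52%) and 19.4% in the green channel alone (others 22.2%). Of 4022 hexamers found in at least 50 kept probes, TCTCTC had the highest such share, with a median over hexamers of 3.90% and a 95th percentile of 7.30%. CTCTCT, which overlaps it, came next with 33.1%, and GAGAGA had 3.01%.
The share was larger for longer runs. These sets are nested: the 617 probes with TCTCTC include the 228 with CTCTCTC, and these include the 33 with CTCTCTCTCT. Of the 219 lower probes with TCTCTC, 147 thus held CTCTCTC. It was 64.5% (147 of 228) for CTCTCTC and 100% (33 of 33) for CTCTCTCTCT, a run that CA14 a also holds at its end. The median difference was -0.17 for TCTCTC, -0.41 for CTCTCTC and -0.47 for CTCTCTCTCT, against -0.01 for probes without TCTCTC. The difference of CA14 a, -0.50, lay near that of the longest run. Longer runs also came with brighter probes. The median signal was 308 without TCTCTC, 731 with it, 2332 for CTCTCTC and 333352 for CTCTCTCTCT, and the mean signal of CA14 a was 35241. The median SD over AD dogs was 0.48 at signals of 100 to 300 and 0.36 above 1000. The 33 probes of the longest run had nearly the same difference, with quartiles of -0.48 and -0.46, so they are not taken as 33 independent probes. The part of brightness in these shares was not tested.
SCN2B a holds no TCTCTC but has gtctct, which is the hexamer with the third highest share (24.5%) and overlaps TGTCTC, the tenth (18.4%). HYDIN a holds neither TCTCTC nor GTCTCT. For the 228 probes with CTCTCTC the median difference was -0.37 in the red channel alone and -0.01 in the green channel alone. For the 33 with CTCTCTCTCT it was -0.17 in red and 0.14 in green.

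**Figure D3:**
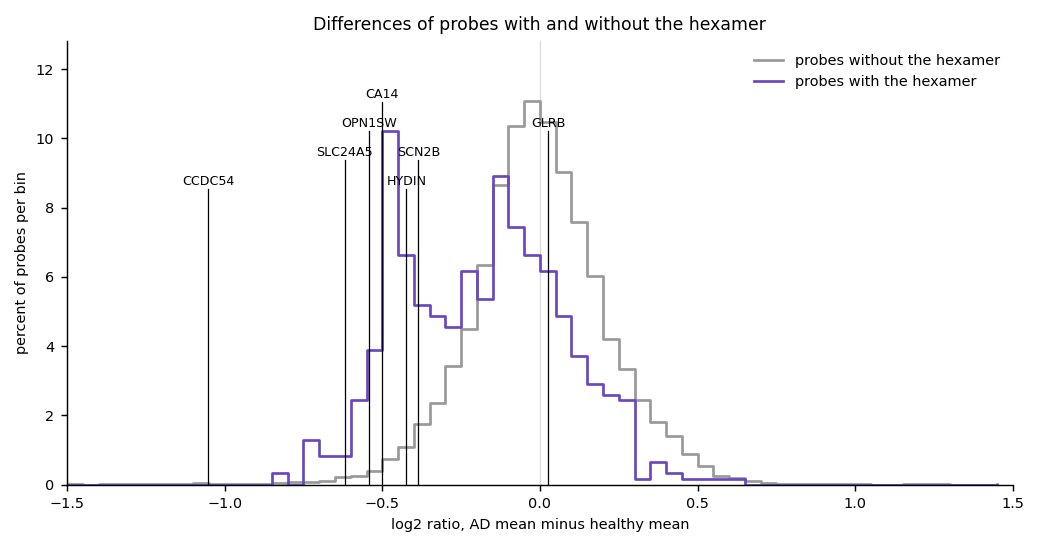
Percent of probes (vertical axis) by difference in mean log2 ratio, AD minus healthy (horizontal axis), for the 617 probes with TCTCTC and the 29577 without it, with a line for the brightest probe of each member. The probes with the hexamer have a peak near -0.5 and a broad part around -0.1. CA14 and OPN1SW, whose probes hold the hexamer, lie at -0.50 and -0.54. HYDIN, whose probe does not, lies at -0.42.

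The level of the probes with TCTCTC also varied between dogs of the same group. Its value on an array, the median log2 ratio of the 617 probes, ran from -0.25 to 0.35 in healthy dogs (mean 0.05 ± 0.17, n = 8) and from -0.54 to 0.07 in AD dogs (mean -0.17 ± 0.18, n = 20). AD dogs 14, 12, 6 and 8 had the lowest levels, at -0.54, -0.43, -0.41 and -0.39, and healthy dog 5 the highest.
Within AD dogs CA14 a followed this level with an r of 0.94 (rho 0.95), CCDC54 a with 0.86 (rho 0.91) and SCN2B a with 0.70 (rho 0.66). Without the 2 dogs farthest from the median these were 0.92, 0.85 and 0.59, and with slide means removed they were 0.94, 0.87 and 0.74. SLC24A5 had an r of 0.51 (rho 0.48) and OPN1SW of 0.30 (rho 0.26), which lie within the range of probes that hold no TCTCTC, whose r ran from -0.66 to 0.69 between the 5th and the 95th percentile. SCN2B a lay just past that range, with 4.64% of those probes at or above its r. HYDIN a had an r of -0.43.
The other probes of the same genes did not rise with it in AD dogs, where CA14 b had an r of 0.07, CCDC54 b of -0.08, SCN2B b of -0.10 and SCN2B c of -0.58. In healthy dogs CA14 b had an r of 0.44 and CCDC54 b of -0.21. In healthy dogs CA14 a had an r of 0.98, CCDC54 a of 0.87, SCN2B a of 0.86, OPN1SW of 0.80 and SLC24A5 of 0.53. Probes without TCTCTC ran from -0.73 to 0.81 there between the 5th and the 95th percentile, a range that holds OPN1SW and SLC24A5. Without the 2 dogs farthest from the median the 5 values were 0.69, 0.60, 0.24, 0.22 and 0.15, so those of SCN2B, OPN1SW and SLC24A5 rest on those dogs. The arrays share the common reference and the centring, and no p is given for these correlations because the hexamer was chosen on the same arrays.

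**Figure D4:**
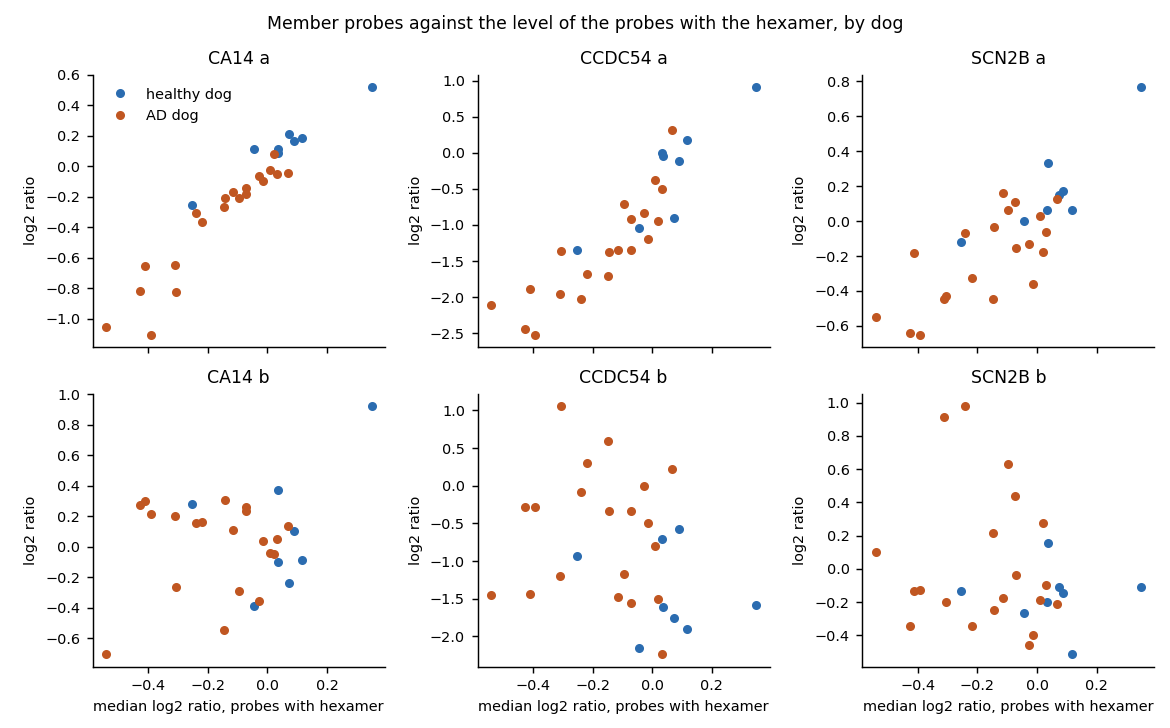
Log2 ratio of 6 member probes (vertical axes) against the median log2 ratio of the 617 probes with the hexamer (horizontal axis), 1 point for each dog. CA14 a and CCDC54 a rise with that level in both groups, with an r of 0.94 and 0.86 in AD dogs. CA14 b had an r of 0.07 in AD and 0.44 in healthy dogs, and CCDC54 b of -0.08 and -0.21.

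The genes whose log2 ratios were most like the members over the 28 arrays, with the group means removed, were sought among 10223 genes by their brightest probe. CA14 was most like RPE65, an enzyme of the visual cycle in the retinal pigment epithelium (r 0.98), and TTYH2, a membrane protein of the tweety family (r 0.98). CCDC54 was most like KRTDAP, a protein of differentiating keratinocytes (r 0.91), and HYKK, a hydroxylysine kinase (r 0.89). The probes of these 4 genes all hold TCTCTC, as the following pair shows.
RPE65: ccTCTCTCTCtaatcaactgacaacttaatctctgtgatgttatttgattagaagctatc
KRTDAP: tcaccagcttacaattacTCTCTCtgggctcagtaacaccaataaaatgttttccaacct
SCN2B was most like KIAA0895L (r 0.92) and PIGR, the epithelial receptor for polymeric immunoglobulins (r 0.91). OPN1SW was most like GPR12 (r 0.88) and BEST4 (r 0.84), SLC24A5 like ANKRD2 (r 0.77) and NEU2 (r 0.77), and HYDIN like TCOF1 (r 0.82) and POF1B (r 0.82). None of these 8 probes holds TCTCTC, but some hold others of the 10 hexamers with the highest shares. KIAA0895L and PIGR hold GTCTCT, BEST4 holds CTCTCT, and GPR12 holds CCCTCT and TGTCTC. An r of over 0.8 with CA14 a was found for 103 genes, 44.7% of which had a probe with TCTCTC, with CCDC54 a for 23 genes (60.9%), with SCN2B a for 43 (39.5%), with OPN1SW for 9 (11.1%), with HYDIN a for 4 (0%) and with SLC24A5 for 0 genes. Of all kept probes, 2.06% hold TCTCTC.

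Most genes with related roles did not pass in either direction. Among genes for other voltage-gated sodium channel subunits, SCN4A (-0.40), the channel of skeletal muscle, whose probe holds TCTCTC, was lower in AD at an unadjusted p under 0.05, and SCN10A (0.53), a channel of sensory neurons, was higher.
Of 19 kept genes of phototransduction and the retina, 2 were lower and 0 higher by the same threshold, with a median difference of 0.19, against -0.01 for all probes kept. These were RPE65 (-0.45), whose probe holds TCTCTC, and ABCA4 (-0.43), a transporter of photoreceptor discs, whose probe does not. PDE6G, a subunit of the photoreceptor phosphodiesterase, was the brightest of the list, with a mean signal of 147761, and differed by 0.35 without passing. The list was mixed in brightness. Of its 29 genes on the array, 10 were well above background in red on all 28 arrays, among them OPN1LW (mean signal 1406, difference 0.36). The probes of GNAT1, GNAT2, ARR3 and PRPH2, which mark rods and cones, were not kept, and were well above background in red on 4, 2, 7 and 1 of 28 arrays.
Of 6 kept genes of melanocytes, MC1R, the melanocortin receptor, was higher (0.64) and none was lower. The pigment enzyme gene TYRP1 was well above background on 0 of 28 arrays, TYR on 13, MLANA on 17 and SLC45A2 on 8, and none of these was kept. Of the 12 genes of this list on the array, 3 were well above background on all 28 arrays. PMEL, 1 of these 3, was bright with a mean signal of 8699 and differed by -0.01. None of the 11 carbonic anhydrases kept passed, CA4 (-0.13) and CA6 (-0.14) being the brightest and CA2 (0.36) and CA12 (-0.16) the most different.
Of 12 kept genes of motile cilia only TEKT1 was lower (-0.43), a gene of ciliary microtubules, while DNAH9, the brightest, differed by 0.00 and FOXJ1, the factor that switches on motile ciliogenesis, by 0.48. None of the 5 genes of glycine receptors and transport passed, GLRA3 (0.37), whose probe holds TCTCTC, and GLRA4 (0.06) being the brightest, and GLRA1 was well above background on 0 arrays. None of the 8 testis genes passed, PRM2 (0.26) and TNP2 (-0.02) being the brightest and SPATA16 (-0.38) and DAZL (-0.29) the most different. None of the 23 kept blood cell markers passed either, ALAS2 (0.63) and CD4 (0.40) being the most different, and none of 10 housekeeping genes, with ACTB at 0.02 and B2M at -0.05. ABCA4 and TEKT1, like SCN2B, OPN1SW, CA14 and CCDC54, are in a list that the study drew from these same samples, so they are not independent evidence of a direction.

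The members' differences depended on the channel and on the background correction. In the red channel alone, which holds the RNA of the dogs, the differences were -0.80 for SCN2B, -0.82 for OPN1SW, -0.72 for SLC24A5, -0.48 for CA14, -1.06 for CCDC54 and -0.47 for HYDIN. In the green channel alone, which holds the same pool on every array, they were -0.41, -0.31, -0.15, 0.095, -0.10 and -0.08 in the same order. The signal of the reference pool at SCN2B a was thus lower on the arrays of AD dogs too, and by as much as the ratio itself.
With normexp background correction and loess normalization the differences were smaller, at -0.17 for SLC24A5, -0.27 for CCDC54, -0.05 for HYDIN, -0.28 for OPN1SW, -0.29 for SCN2B and -0.45 for CA14. With the mean of all probes of a gene in place of the brightest, SCN2B differed by -0.05, CA14 by -0.30, CCDC54 by -0.14, HYDIN by -1.01 and GLRB by 0.37, the last 2 with probes that the filter did not keep. With the level of the TCTCTC probes as a term in the fit, added after the values were seen, they were -0.14 for SCN2B, -0.35 for OPN1SW, -0.38 for SLC24A5, -0.11 for CA14, -0.26 for CCDC54 and -0.62 for HYDIN. The part of slide, scan day, signal strength and probe sequence in the lower values of AD dogs was not tested.

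**Figure D5:**
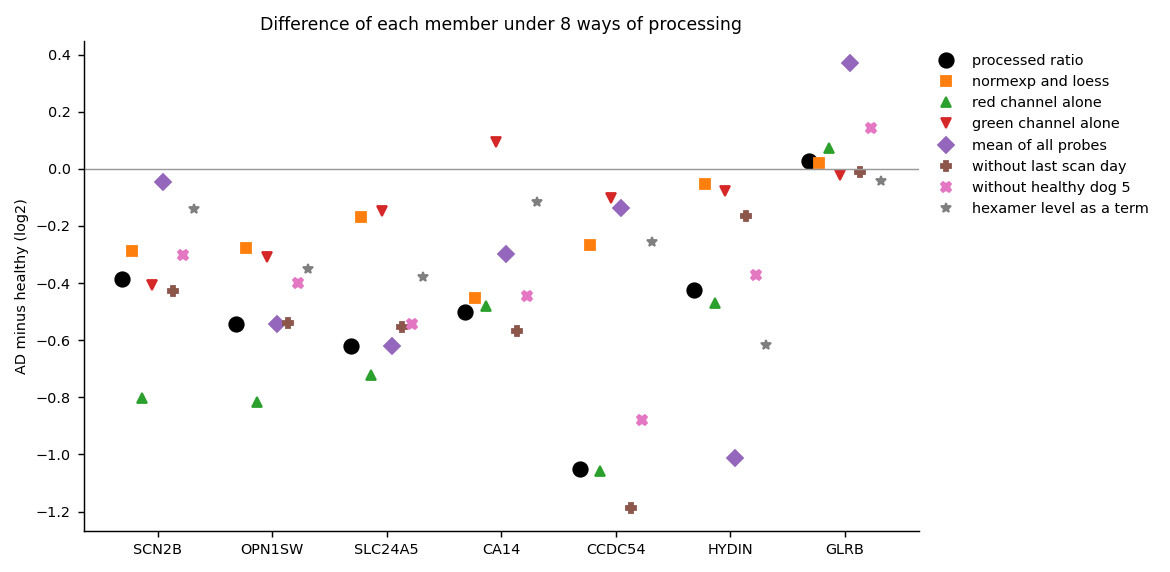
Difference in mean log2 value, AD minus healthy (vertical axis), of the 7 members under 8 ways of processing; the channels are quantile-normalized log2 signals and the rest are log2 ratios. CA14 lies above 0 in the green channel alone, and the highest point of GLRB is the mean of both probes, of which GLRB b was not well above background in any dog.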

How the data were processed

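The authors scanned the arrays, and the deposited scanner files hold spot intensities from Agilent Feature Extraction (version 10.7.3.1 per the labels), with background subtraction and Lowess dye normalization. The authors' series table repeats their log10 ratio and was used as an alternative. Red over green processed signal was taken as log2, spots marked as outliers were set to missing, spots of 1 probe were averaged, and each array was centred on its median over the probes kept. The study's filter is stated briefly and was read here as follows, which does not leave the number of transcripts the study had: a probe was kept if it was well above background in some channel on some array and any of the 4 medians by group and channel exceeded 100. Groups and slides were compared with limma 3.58.1 (R 4.3.3) and Benjamini-Hochberg adjustment, and probe pairs by permutation (100000 resamples, or exact) in Python 3.11.15. The steps were tested on simulated data. The members and gene lists were chosen with earlier results of these data known. Named genes were the members, the 2 most alike genes of each, and from each list the 2 brightest, the 2 most different and those a count of 5 or fewer refers to. TC76074, OPN1LW and the faint markers of each list were named after their values were seen. All 7 symbols matched a RefSeq table of the assembly UU_Cfam_GSD_1.0, used for names only. The labels number the dogs within each group; over 8 pairs of equal number the correlation of deviations ran from -0.36 to 0.42 and exceeded 0.1 in 4, so the numbers do not pair the dogs. Precision is limited by how many arrays there are. Some genes of the lists are not reported here.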

Additional observations from a re-analysis of the deposited data

Results flagged for a closer look

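In 2 of the 13 member probes, 1 of the 8 healthy dogs stood apart from the rest by Dixon's test, which chance does in about 1 of 20 groups. For SLC24A5 the log2 ratio of healthy dog 5 was 0.51 and the next was 0.09. For GLRB b, which was not well above background on any array, the log2 ratio of healthy dog 7 was -1.43 and the next was -0.85. Healthy dog 5 also had the highest log2 ratio of the healthy dogs for SCN2B a (0.77), OPN1SW (1.05), CA14 a (0.52), CCDC54 a (0.91) and HYDIN a (0.48), none of which passed that test, and the highest level of the probes with TCTCTC (0.35). Without this dog the differences of SCN2B, OPN1SW, SLC24A5, CA14, CCDC54 and HYDIN were -0.30, -0.40, -0.54, -0.45, -0.88 and -0.37.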

How the results depend on the processing

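The count of probes at an unadjusted p under 0.05 was 1847 and became 3301 with no filter on signal, 5801 in the red and 13495 in the green channel alone, 1201 with slide as a random block, 6052 with array weights, 785 without slide 3, 2778 without slide 5, 2807 without the last scan day and 1520 to 2553 without 1 healthy dog. Probes past an adjusted p of 0.085 were 3, 1051, 11891 and 1009 with no filter, in red, in green and with array weights, and 0 under every other alternative, as at first. The replicate block, which pairs dogs by number, gave 5177 probes at an unadjusted p under 0.05 and 43.1% of the TCTCTC probes lower, and 1 of 8 dogs correlated best with its own number. The median difference of the 7 members was -0.50, became -0.10 in the green channel alone, and stayed negative otherwise (-0.56 to -0.40 without 1 healthy dog), and 6 or 7 members were lower. The difference of CA14 turned to 0.095 in the green channel alone. The share of TCTCTC probes lower in AD, for which every alternative was added after seeing the data, was 29.3% with no filter, 20.7% with normexp and loess, 19.4% in green (against 22.2% of other probes there), 31.0% with slide as a random block, 43.8% with array weights, 27.4% without slide 2, 16.9% without slide 3, 1.13% with its own level as a term and 28.2% to 38.2% without 1 healthy dog. With its own level as a term the share was bound to fall, so nothing is read from the 1.13%. Slides within AD dogs passed at 1131 probes, but 0 with normexp and loess, 7268 in red, 12244 in green and 0 without the last scan day; the cause was not tested. Of 14 Pearson correlations between probes, 1 passed without the 2 dogs farthest from the median, and its rho did not (permutation test, adjusted p 0.332).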
